A study of Mus musculus with 2 samples.

Results

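The axon injury and regeneration genes are a set of 10 genes of peripheral neurons and their glia, namely Atf3, Sox11, Sprr1a, Ecel1, Gap43, Stmn4, Flrt3, Gadd45a, Klf6 and Jun. They were matched by gene symbol, and all 10 were found among the 31253 genes counted. They were followed in 2 droplet-based single-cell libraries, replicates 1 and 2, of dissociated L4-5 dorsal root ganglia, the clusters of sensory neuron cell bodies beside the lumbar spinal cord. Both libraries came from wildtype mice of 8 weeks in the acetone-ether-water (AEW) group, a treatment that dries the skin and makes mice scratch. There was no untreated or injured group, so every comparison is between cell types within these libraries. The labels do not say whether the replicates came from separate animals. The p-values therefore measure only how far differences between classes varied from library to library, which may be technical. That spread was estimated over all classes of a fit, including those outside a comparison.

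When the axon of a sensory neuron is cut or crushed, its cell body switches on transcription factors such as ATF3, JUN, SOX11 and KLF6, and then genes whose products act in the growing axon. The same stress-responsive factors also act outside neurons. JUN drives the repair state of Schwann cells after nerve injury, and Atf3, Jun and Klf6 are immediate early genes that rise quickly in many cells when tissue is cut and digested. In uninjured adult ganglia Sprr1a and Ecel1 are nearly silent, whereas Gap43 and Jun are made by many neurons without injury.

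After filtering, 7774 cells of replicate 1 and 10270 cells of replicate 2 remained, with median depths of 4991 and 4102.5 UMIs (unique molecular identifiers, 1 per captured transcript) from total counts of 113251556 and 102347251 UMIs. The labels give the cell type as neuron, but neurons with at least 10000 UMIs numbered 619 and 902, while satellite glia, the cells that wrap neuron bodies, numbered 2610 and 1921. There were 1047 and 631 myelinating and 521 and 491 non-myelinating Schwann cells, the glia of axons. Class names stand for clusters that resemble that cell type by its markers. The libraries shared 24 barcodes. Levels are given as UMIs per 10000 UMIs of the class. The method reads the 3′ ends of transcripts, so levels are compared between cells and not between genes.

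Promoters are printed for Sprr1a and Atf3, the genes on which the single-cell results below turn. The search was for the AP-1 motif TGANTCA, to which JUN and FOS dimers bind, and for the cAMP response element TGACGTCA and its variant TTACGTCA, which ATF proteins bind. The 250 bases before the start are from RefSeq on build GRCm38.p6, both genes lie on the minus strand, and capitals mark matches on either strand.
Sprr1a (chr3:92485882-92486131): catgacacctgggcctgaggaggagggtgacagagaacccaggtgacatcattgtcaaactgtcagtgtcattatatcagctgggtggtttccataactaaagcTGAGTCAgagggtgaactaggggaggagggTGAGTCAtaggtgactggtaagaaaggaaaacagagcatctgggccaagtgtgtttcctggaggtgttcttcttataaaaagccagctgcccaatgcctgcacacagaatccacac
Atf3 (chr1:191183334-191183583): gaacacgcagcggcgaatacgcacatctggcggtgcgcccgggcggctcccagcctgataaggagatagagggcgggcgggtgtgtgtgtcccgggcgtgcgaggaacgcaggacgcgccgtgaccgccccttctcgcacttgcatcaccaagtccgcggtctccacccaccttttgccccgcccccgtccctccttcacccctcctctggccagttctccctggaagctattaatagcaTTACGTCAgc

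Sprr1a held the AP-1 letters TGAGTCA at 2 places, 146 to 140 and 116 to 110 bases before its start. Atf3 held the variant TTACGTCA at 10 to 3 bases before the start used here. That start lies inside the annotated gene, chr1:191170296-191218039, and the bases before the upstream end of the gene were not searched. Of 32851 mouse promoters of the same length, 6.75% held TGANTCA, 1.55% TGACGTCA and 0.447% TTACGTCA. Promoters of 8 of the 10 genes were available, and those of Sox11, Ecel1, Flrt3, Gadd45a, Klf6 and Jun held none of these letters in this window; Gap43 and Stmn4 are named only. These matches describe sequence and not binding.

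The first comparison set neurons against the mean of satellite glia and both Schwann types. The transcription factors Atf3, Jun and Klf6 were lower in neurons, and the growth genes Gap43 and Stmn4, the transcription factor Sox11 and Sprr1a were higher. In all, 4 genes were higher, 3 were lower and 2 did not pass, by edgeR's quasi-likelihood test at an adjusted p under 0.05 over all genes. Over all 13422 genes tested 66% were called, 35.2% higher and 30.7% lower, so a call by itself is common here. Ecel1, at 321 UMIs in neurons and 11 in the glia, was too sparse for the test.

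Atf3, a stress-induced transcription factor, had 0.564 and 1.72 UMIs per 10000 in neurons of replicates 1 and 2, against 0.317 and 2.13 in satellite glia, 2.33 and 4.36 in myelinating Schwann cells and 18.6 and 28.6 in non-myelinating Schwann cells. Neurons and satellite glia overlapped, and both Schwann types lay above neurons in each library. The log2 difference of neurons to glia was -2.05 ± 0.56 (SE, adjusted p = 0.00275, edgeR). Jun, the DNA-binding partner of FOS in AP-1, had 2.01 and 2.64 in neurons, against 4.83 and 16.6 in satellite glia, 9.38 and 12.2 in myelinating and 32.8 and 40.8 in non-myelinating Schwann cells, a log2 difference of -2.80 ± 0.41 (adjusted p = 2.43e-06, edgeR). Klf6, a zinc-finger factor that supports axon growth, had 0.609 and 0.798 in neurons, against 0.619 and 2.19, 2.10 and 2.58, and 6.68 and 8.55 in the same 3 glial types in that order.

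**Figure D1:**
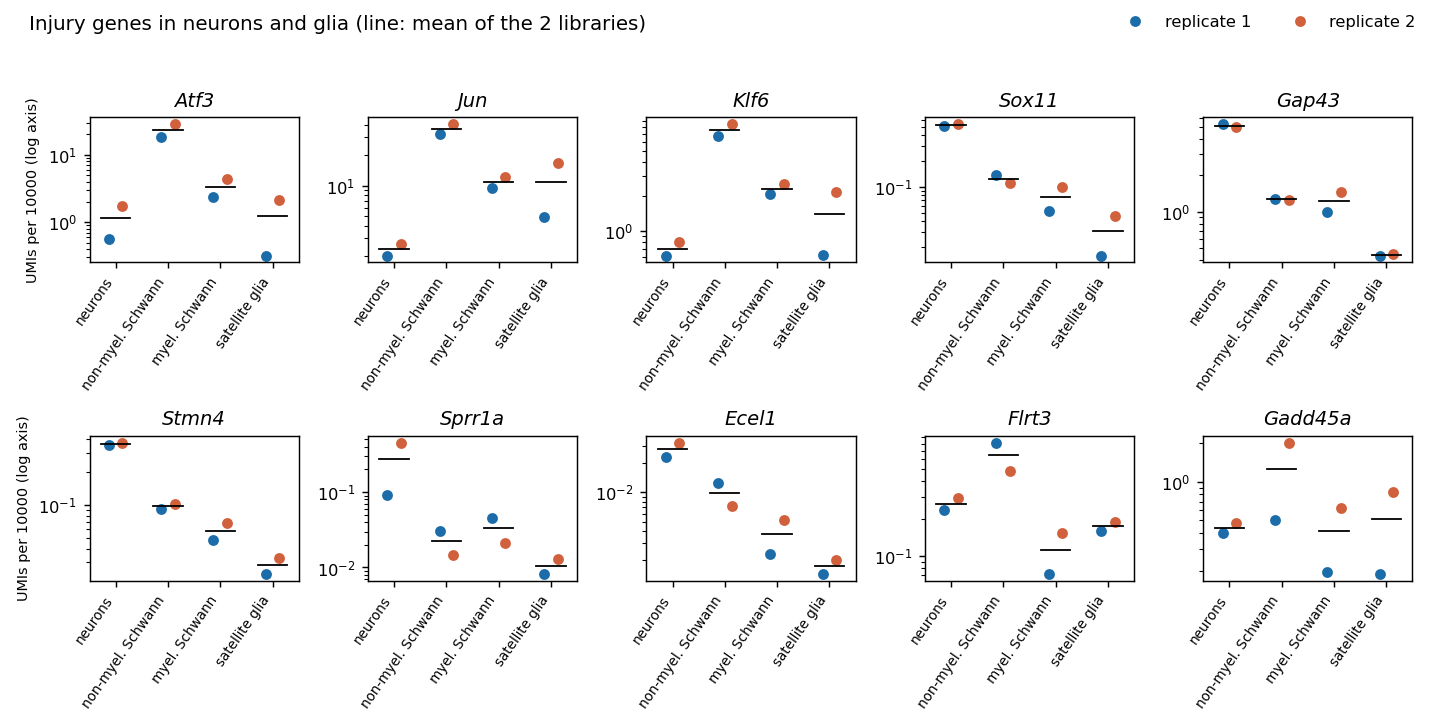
Levels of the 10 genes in neurons, non-myelinating Schwann cells, myelinating Schwann cells and satellite glia, as UMIs per 10000 UMIs on log axes, with 1 point per library. Atf3, Jun and Klf6 lie highest in non-myelinating Schwann cells in both libraries, and Gap43, Sox11 and Stmn4 lie highest in neurons in both.

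Gap43, a membrane protein of growth cones, averaged 5.17 ± 0.228 UMIs per 10000 in neurons and 0.979 ± 0.105 in glia (SD, n = 2 libraries), a log2 difference of 2.56 ± 0.17 (SE, adjusted p = 6.56e-12, edgeR). Sox11, a developmental factor of growing neurons, averaged 0.526 ± 0.0207 in neurons and 0.0766 ± 0.0119 in glia. Stmn4, a stathmin that binds tubulin, averaged 0.363 ± 0.0137 in neurons and 0.0613 ± 0.00921 in glia. For all 3 genes the libraries lay close together and neurons lay above each glial type in both.

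B cells had 1.54 and 1.31 UMIs per 10000 of Gap43 and 0.119 and 0.0710 of Stmn4. That is above satellite glia in both libraries, within reach of myelinating Schwann cells for Gap43, at 1.00 and 1.45, and of non-myelinating Schwann cells for Stmn4, at 0.0928 and 0.102. A set of 8 neuron markers summed to 151 and 157 in neurons, against 47.3 and 52.7 in non-myelinating Schwann cells, 38.7 and 51.5 in myelinating Schwann cells, 18.7 and 18.7 in satellite glia and 54.5 and 50.0 in B cells, with all 8 above 0 in every one of these types. Their part in the glial values of these genes was not tested.

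Flrt3, a transmembrane protein with leucine-rich repeats, and Gadd45a, a stress-induced protein of DNA damage signalling, did not pass between neurons and glia, with log2 differences of 0.20 ± 0.20 (SE, adjusted p = 0.385, edgeR) and -0.31 ± 0.31 (adjusted p = 0.400), that of Gadd45a 0.57 from replicate 1 alone. Flrt3 had 0.232 and 0.294 UMIs per 10000 in neurons, inside the range from 0.0713 to 0.817 of the glial types. The highest Gadd45a levels of any class were in neutrophils, at 3.24 and 3.37.

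Sprr1a, a small proline-rich protein of the skin barrier that injured sensory neurons also make, was close to absent from glia. It had 0.0908 and 0.454 in neurons, against 0.00811 and 0.0128 in satellite glia, 0.0460 and 0.0209 in myelinating and 0.0309 and 0.0146 in non-myelinating Schwann cells, with 2896 UMIs in neurons and 67 in the glia. The log2 difference was 3.41 ± 0.42 (SE, adjusted p = 3.14e-07, edgeR), but 4.46 from replicate 2 alone and 1.73 from replicate 1 alone. Most of the neuronal UMIs came from 1 small cluster described below. Without it neurons had 0.0273 and 0.0180, and the gene was then too sparse for the test.

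Related genes were grouped by role. Of 14 tested regeneration transcription factors 4 were higher in neurons, 9 lower and 1 not called; Klf7, a relative of Klf6, was higher by a log2 difference of 2.03 and Cebpd differed by -4.26. Of 18 growth cone and cytoskeleton genes 15 were higher and 3 lower, led by Basp1, a growth cone protein similar to GAP43, at 3.46 and the tubulin Tubb2b at 3.19, with a list median of 1.26 against 0.10 over all genes tested. Of 13 genes of DLK and JNK signalling, the kinase route from axon damage to JUN, and of axon degeneration, 10 were higher and 1 lower, among them Nmnat2, which keeps axons alive, at 1.86 and the neuronal kinase Mapk10 (JNK3) at 1.69.

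Of 8 injury peptides and secreted factors 4 were higher in neurons and 1 lower, among them Adcyap1 at 4.06 and Gal at 3.62, and of 15 other genes that rise in injured neurons 8 were higher and 5 lower. Of 17 dissociation and immediate early genes 2 were higher and 12 lower, with a list median of -3.04; Nr4a1 differed by -5.07 and Fosb by -4.70. Of 13 genes of the Schwann repair programme 4 were higher and 7 lower, with Pou3f1 and Egr2, 2 factors of myelination, at -6.66 and -6.01.

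The next comparisons asked how the injury genes differed among the glia. Against satellite glia, the Schwann types had higher Atf3, Klf6, Sox11, Gap43 and Stmn4, so 5 of 9 tested genes were called higher and none lower, where 28.3% of all genes were called, 12.8% higher and 15.6% lower. The log2 difference was 2.85 ± 0.61 for Atf3 (SE, adjusted p = 0.00097, edgeR) and 1.45 ± 0.39 for Klf6 (adjusted p = 0.00669), while Jun at 0.64 ± 0.38 (adjusted p = 0.226), Flrt3, Gadd45a and Sprr1a did not pass. The Klf6 call was lost without a library term (adjusted p = 0.0756) and without a Fos-rich Schwann cluster described below (adjusted p = 0.0707). The neuron markers named above were also higher in the Schwann types, and their part in the Sox11, Gap43 and Stmn4 values was not tested. From replicate 1 alone the differences were 4.35 for Atf3, 2.59 for Klf6, 2.12 for Sox11 and 1.86 for Jun.

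Satellite glia were unlike between libraries. Their Atf3 was 0.317 and 2.13 UMIs per 10000, their Jun 4.83 and 16.6 and their Fos, an immediate early gene, 5.97 and 31.4 in replicates 1 and 2. Satellite clusters were filled unequally, 1 holding 1125 and 42 cells and another 53 and 1103. In a satellite cluster of 12 and 692 cells with high Fos, at 61.4 and 60.5, Atf3 was 5.35 and 4.43 and Jun 38.2 and 31.0, while in a cluster of 1420 and 84 cells with Fos at 2.19 and 5.98 Atf3 was 0.0842 and 0.321 and Jun 2.71 and 3.67. Within these clusters Jun differed less between the libraries than over all satellite glia. In the cluster of 53 and 1103 cells Atf3 was 0.0550 and 0.556. A further glial cluster of 77 and 1275 cells could not be named by its markers and had 12.5 and 6.49 of Atf3 and 40.2 and 27.4 of Jun.

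Non-myelinating Schwann cells wrap bundles of thin axons without making myelin. Against myelinating Schwann cells they had higher Atf3, Jun, Klf6, Flrt3 and Gadd45a, 5 of 9 tested and none lower, where 15% of all genes were called, 8.27% higher and 6.77% lower. The log2 difference was 2.74 ± 0.65 for Atf3 (SE, adjusted p = 0.0038, edgeR), 1.66 ± 0.43 for Jun (adjusted p = 0.00834), 1.57 ± 0.43 for Klf6 (adjusted p = 0.0132) and 1.52 ± 0.43 for Gadd45a (adjusted p = 0.015). Flrt3 had 0.817 and 0.483 UMIs per 10000 in non-myelinating and 0.0713 and 0.152 in myelinating Schwann cells, which do not overlap, a difference of 2.57 ± 0.32 (adjusted p = 1.88e-06). Without a library term Atf3 (adjusted p = 0.0612), Klf6 (adjusted p = 0.0818) and Gadd45a (adjusted p = 0.169) lost the call.

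These Atf3 and Jun differences moved with immediate early genes and with 1 cluster. The 17 dissociation and immediate early genes summed to 234 and 267 UMIs per 10000 in non-myelinating and 149 and 136 in myelinating Schwann cells, with all 17 above 0 in both. A Fos-rich cluster held 42 and 311 of the non-myelinating cells, chosen after its values were seen. Its Atf3 was 87.4 and 38.3 and its Fos 149 and 99.9, against 11.4 and 3.57 and against 45.8 and 29.9 in the other non-myelinating cluster. Without the Fos-rich cluster the only gene still called was Flrt3, at 2.69, and Atf3 stood at 1.34 (adjusted p = 0.313, edgeR), Jun at 0.89 (adjusted p = 0.270), Klf6 at 0.91 (adjusted p = 0.300) and Gadd45a at -0.22 (adjusted p = 0.898). The part of dissociation in these values was not tested.

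Other genes that differed between the Schwann types included the factor Cebpd at a log2 difference of 3.74, the growth factor Csf1 at 2.56 and the cell adhesion molecule Chl1 at 4.97. Of 13 repair programme genes 5 were higher in non-myelinating cells, among them Gfap at 3.91 and Ncam1 at 3.16, both long known as markers of non-myelinating Schwann cells, and 1 was lower, Pou3f1 at -3.44. Of 14 regeneration transcription factors 3 were higher and of 17 dissociation genes 4 were higher, none lower in either list.

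In single cells thinned to 2000 UMIs, Atf3 was detected in 186 of 442 non-myelinating Schwann cells of replicate 1, or 42.1% (95% Clopper-Pearson interval 37.4 to 46.8), and in 298 of 361 of replicate 2, or 82.5% (78.2 to 86.3). The shares were 19.0% (16.5 to 21.7) and 35.7% (31.7 to 39.9) in myelinating Schwann cells, 3.94% (3.22 to 4.77) and 21.4% (19.6 to 23.4) in satellite glia and 11.1% (8.78 to 13.9) and 28.0% (25.1 to 31.1) in neurons. B cells, at 1.92% (0.0487 to 10.3) and 14.3% (7.35 to 24.1), overlapped satellite glia in both libraries. Endothelial cells, at 43.8% (38.5 to 49.2) and 67.5% (63.9 to 70.9), overlapped non-myelinating Schwann cells in replicate 1 and lay below them in replicate 2. These intervals cover counting error only.

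Of the non-myelinating Schwann cells with Atf3, 177 of 186 and 292 of 298 also held Fos, 179 and 285 held Jun and 133 and 214 held Klf6, while Sprr1a was detected in 3 and 2 cells of the type. Fos and Jun were common in the type whether or not Atf3 was seen, with Fos in 72.4% and 94.7% of its cells and Jun in 81.2% and 92.2%.

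**Figure D2:**
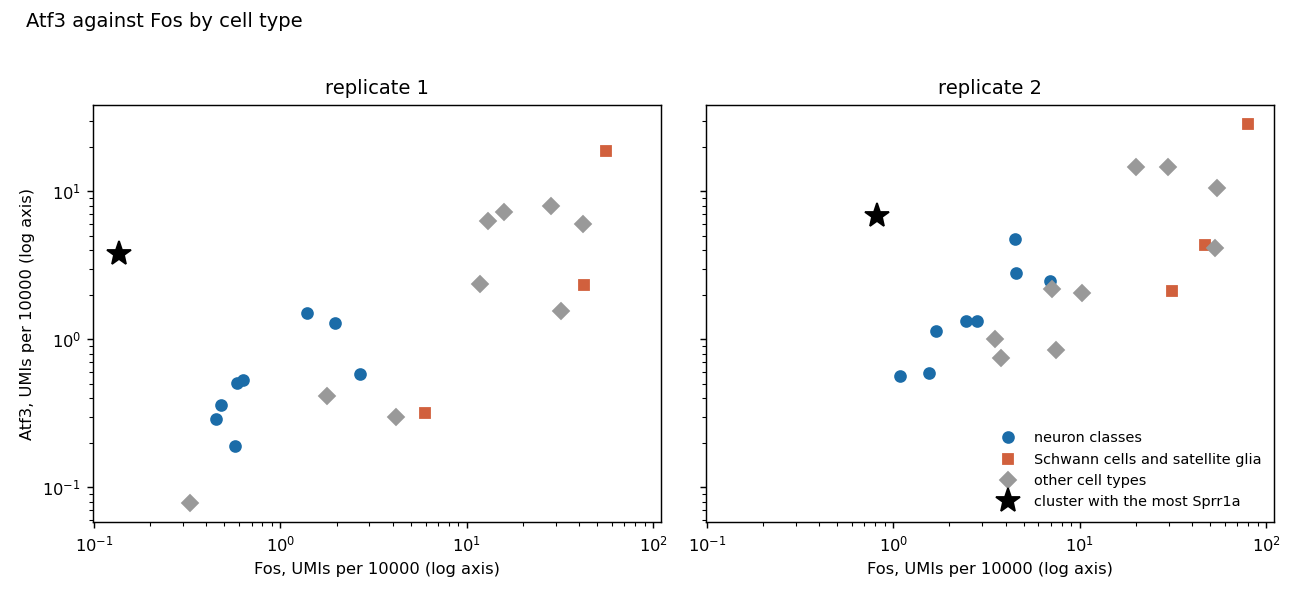
Atf3 against Fos, both as UMIs per 10000 UMIs on log axes, for each cell class, with 1 panel per library; blue points are the 8 neuron classes, red the 3 glial types, grey 9 other cell types, and the star is the neuron cluster with the most Sprr1a. Glial types with more Fos had more Atf3, while the star, at 3.76 and 6.82 of Atf3, lies above the neuron classes of its library.

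Atf3 was high outside the nervous lineage as well, at 7.27 and 14.6 UMIs per 10000 in macrophages, 7.94 and 14.6 in mural cells of vessels and 6.04 and 10.6 in endothelial cells. Across 26 class sums the genes most like Jun, among 9578 compared, were Egr1 at a Pearson r of 0.94, Gbp2 at 0.92, Tnfsf12 at 0.92, Junb at 0.91 and Fos at 0.91. These sums share 2 libraries and differ in depth, and r is a description.

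The next comparisons asked how the injury genes differed among 8 named classes of neuron. Every gene of the set differed among the classes, all 10 at an adjusted p under 0.05 by edgeR's quasi-likelihood test, but so did 80.3% of the 13291 genes tested. Gap43 had the plainest order. It was highest in thinly myelinated peptidergic neurons (PEP-A), at 12.4 and 14.2 UMIs per 10000, and in unmyelinated peptidergic neurons (PEP-C), at 13.3 and 12.0, and the libraries of these classes overlapped. Next came the Mrgpra3 itch neurons (NP2) at 8.54 and 8.35 and the cold-sensing neurons (TRPM8) at 4.59 and 4.44. The Nppb itch neurons (NP3) at 1.28 and 2.09, the Mrgprd neurons (NP1) at 1.18 and 1.51 and the large myelinated neurons (NF) at 1.00 and 0.931 lay close together, with the C-fibre touch neurons (TH) lowest at 0.444 and 0.376.

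Over the 16 class sums the genes like Gap43, among 8453 compared, included Ifitm2, Pirt, Borcs5 and Comp at a Pearson r of 0.87 to 0.86. Stmn4 was highest in PEP-C, at 0.740 and 0.802, and lowest in NP3, at 0.0153 and 0.0107.

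**Figure D3:**
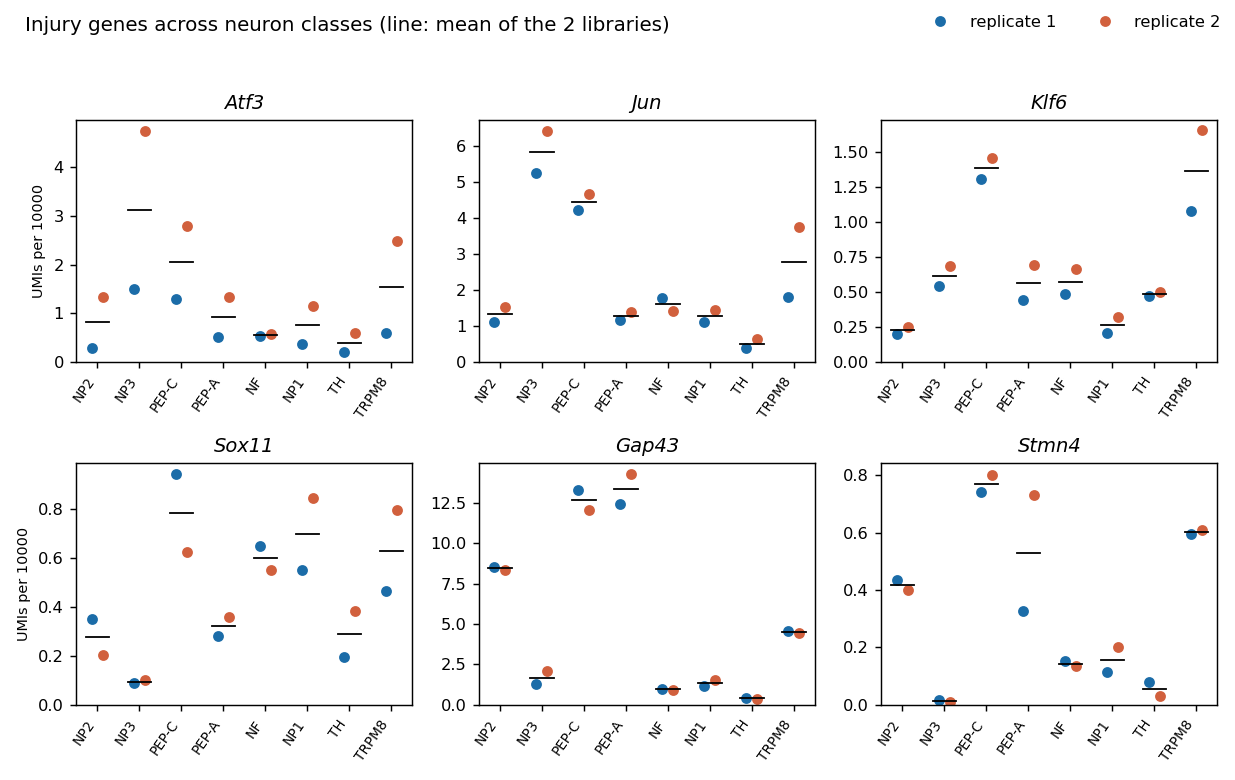
Levels of Atf3, Jun, Klf6, Sox11, Gap43 and Stmn4 in the 8 neuron classes, as UMIs per 10000 UMIs on linear axes, with 1 point per library. Classes are NP2 and NP3 (itch), PEP-C and PEP-A (peptidergic), NF (large myelinated), NP1, TH and TRPM8. Gap43 lies highest in both peptidergic classes and lowest in TH, and Atf3 is higher in replicate 2 than in replicate 1 in each of the 8 classes.

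The itch classes (NP2 and NP3) had lower Gap43, Stmn4, Klf6, Sox11, Flrt3, Sprr1a and Ecel1 than the peptidergic classes (PEP-C and PEP-A), 7 of 10 genes lower and none higher, where 36.1% of all genes were called, 19.7% lower and 16.4% higher. Gap43 averaged 5.06 ± 0.219 UMIs per 10000 in itch and 13 ± 0.203 in peptidergic classes (SD, n = 2 libraries), a log2 difference of -1.78 ± 0.13 (SE, adjusted p = 5.02e-09, edgeR). Stmn4 differed by -2.99 ± 0.33, an average of logs with NP3 near 0. Its levels averaged 0.215 ± 0.0130 in itch and 0.651 ± 0.165 in peptidergic classes (SD), and in replicate 1 NP2 lay above PEP-A. Klf6 differed by -1.22 ± 0.13, Sox11 by -1.57 ± 0.26 and Flrt3 by -0.76 ± 0.20, the last not called with doublets kept (adjusted p = 0.176) or at the lower resolution (adjusted p = 0.108). Sprr1a, with 1 UMI in the itch classes against 215, and Ecel1, a membrane peptidase induced by nerve damage, with 3 against 147, rest on too few counts for a fold, and with neurons of any depth Sprr1a (adjusted p = 0.536), Ecel1 (adjusted p = 0.259) and Flrt3 (adjusted p = 0.0764) were not called.

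Atf3, Jun and Gadd45a did not pass between these classes. Atf3 had a log2 difference of 0.09 ± 0.22 (SE, adjusted p = 0.803, edgeR), but the classes within a side were unlike: NP3 had 1.50 and 4.75 and NP2 0.288 and 1.33, against 1.28 and 2.80 in PEP-C and 0.506 and 1.34 in PEP-A. Jun was likewise highest in NP3, at 5.25 and 6.44, and in PEP-C, at 4.24 and 4.67, and lowest in TH, at 0.377 and 0.617. The peptides Gal and Adcyap1 differed by -5.68 and -4.94, while Nts, a neuropeptide of NP3 neurons, was higher by 4.62. Of 14 regeneration transcription factors 4 were higher and 4 lower.

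Between the myelinated classes (NF and PEP-A) and the unmyelinated ones 5 of the 10 genes passed, where 48.5% of all genes were called, 26.5% higher and 22.1% lower. Atf3 was lower by a log2 difference of -0.53 ± 0.19 (SE, adjusted p = 0.030, edgeR) and Jun by -0.48 ± 0.14 (adjusted p = 0.00683), and Gap43 was higher by 0.33 ± 0.11 (adjusted p = 0.0153) and Stmn4 by 0.63 ± 0.24 (adjusted p = 0.0358). By library the Atf3 difference was -0.037 in replicate 1 and -1.01 in replicate 2, and that of Jun -0.19 and -0.72. Stmn4 levels overlapped, at 0.240 and 0.434 UMIs per 10000 in the myelinated and 0.330 and 0.343 in the unmyelinated classes. Its log2 difference averages logs over classes, with NP3 the lowest. For Gap43 the myelinated classes were unlike, PEP-A being among the highest classes and NF among the low ones, as given above. The Atf3 call was lost with DESeq2 (adjusted p = 0.0515), without a library term (adjusted p = 0.251) and without the cluster described below (adjusted p = 0.117), and the Stmn4 call with doublets kept (adjusted p = 0.483). Sprr1a was called higher, but that fit averages logs over classes, with NP3 and TRPM8 at 0 UMIs, and was not called at the lower clustering resolution (adjusted p = 0.160), while its level was 0.149 and 0.0816 in the myelinated and 0.0338 and 0.302 in the unmyelinated classes, which overlap.

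PEP-C and NP1 neurons, both nociceptors with unmyelinated axons, differed in 8 of the 10 genes, 6 higher and 2 lower in PEP-C, where 38.6% of all genes were called, 19.5% higher and 19.1% lower. Gap43 had a log2 difference of 3.03 ± 0.19 (SE, adjusted p = 8.64e-10, edgeR), Klf6 of 2.22 ± 0.16, Stmn4 of 2.12 ± 0.29, Jun of 1.60 ± 0.22 and Atf3 of 1.36 ± 0.30 (adjusted p = 0.0013; 0.284 without a library term). Ecel1, at 1.11 ± 0.41 (adjusted p = 0.0422), lost its call under 5 alternatives, among them DESeq2 (adjusted p = 0.264). Gadd45a was lower by -1.19 ± 0.20. Sprr1a was lower by -4.79 ± 0.74, but higher by 5.08 (adjusted p = 0.00235, edgeR) without the NP1 cluster of 27 cells described below, in which nearly all of the Sprr1a of NP1 lay. In PEP-C, Sprr1a came to 45 UMIs, at 0.00412 and 0.0656 per 10000. After thinning to 10000 UMIs it was detected in 0 of 75 and 2 of 99 PEP-C cells, so the reversal rests on few cells. Leaving out the NP1 cluster of 27 cells also moved the other differences, to 4.29 for Ecel1 (adjusted p = 1.1e-05, edgeR), 4.39 for Stmn4, 4.11 for Gap43 and 2.08 for Atf3.

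Of 14 regeneration transcription factors 10 were higher in PEP-C and none lower, led by Klf4 at 2.93 and Cebpd at 1.97, and 12 of 17 dissociation and immediate early genes were higher and 2 lower, led by Btg2 at 3.01 and Zfp36 at 1.83. Fos was 1.97 and 4.53 in PEP-C and 0.479 and 1.69 in NP1. Its part in the Atf3 and Jun values was not tested.

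Atf3 in neurons differed between the libraries. It was higher in replicate 2 than in replicate 1 in 8 of 8 neuron classes, at a median ratio of 3.13 (1.07 to 4.63), as was Fos, at a median ratio of 2.96 (1.72 to 5.39), while Gap43 had a median ratio of 0.973 and was higher in 3 classes. In neurons thinned to 10000 UMIs Atf3 was detected in 184 of 619 cells, or 29.7% (26.1 to 33.5), and 559 of 902, or 62.0% (58.7 to 65.2). Over the 16 class sums the genes most like Atf3 were Gadd45g at a Pearson r of 0.95, Ttc33 at 0.91 and the immediate early genes Junb at 0.90, Ier2 at 0.89 and Fosb at 0.89.

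Sprr1a and Ecel1 were found in few neurons. In neurons thinned to 10000 UMIs Sprr1a was detected in 13 of 619 cells of replicate 1, or 2.10% (95% Clopper-Pearson interval 1.12 to 3.56), and 15 of 902 of replicate 2, or 1.66% (0.934 to 2.73). At 2000 UMIs the neuron shares were 1.13% (0.456 to 2.32) and 1.22% (0.610 to 2.17), against 0.117% (0.0242 to 0.342) and 0.367% (0.148 to 0.755) in satellite glia. B cells, at 0 of 52 and 0 of 77, had upper bounds of 6.85% and 4.68% and were too few to set a background. By class, the 28 neurons were 12 of 1 cluster scored as NP1, a name that the markers of these 12 go against as described below, 4 of PEP-A, 2 of PEP-C, 5 of NF and 5 of unnamed clusters. None was of NP2, NP3, TH or TRPM8, and the largest of these, TH, with 0 of 136 cells in replicate 2, had an upper Clopper-Pearson bound of 2.68%.

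Neurons with Sprr1a held more of the set in the same cell. Of the other 9 genes they had a median of 5 (2 to 9) in replicate 1 and 7 (3 to 9) in replicate 2, against 3 (0 to 9) and 4 (0 to 8) in neurons without Sprr1a. At least 7 of the 9 were found in 6 of 13 and 8 of 15 neurons with Sprr1a, and in 16 of 606 and 35 of 887 without. All 28 had Gap43, and 10 of 13 and 12 of 15 had Sox11, 9 and 12 Flrt3, 8 and 14 Gadd45a and 7 and 13 Atf3. Ecel1 was found in 3 and 7 of them, out of 12 and 16 neurons with Ecel1 in all. These are counts of cells in 2 libraries and carry no test.

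All 12 NP1 neurons with Sprr1a lay in 1 cluster of 16 and 11 cells, in which they were 4 of 16 and 8 of 11. The cluster was singled out after its values were seen, so what follows is a description, and the genes of the set had been kept out of clustering. Its remaining 15 cells were unlike these 12, so the cluster was read in 2 parts. The 12 neurons with Sprr1a had 0.310 and 0 UMIs per 10000 of Mrgprd, the receptor that defines NP1, against 5.34 and 5.28 in the remaining cells of the cluster and 2.29 and 1.77 in the other NP1 clusters. The 6 NP1 markers together came to 1.53 and 2.37 in the 12 neurons, against 12.6 and 13.2 and against 7.80 and 8.67. Tmem45b was the highest of these markers in the 12, at 1.01 and 2.37, against 3.78 and 4.66 in the other NP1 clusters. The name NP1 is therefore not borne out for these cells by its defining marker, and they are called here by their Sprr1a.

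The 12 neurons had 8.42 and 37.1 UMIs per 10000 of Sprr1a in replicates 1 and 2, a gene by whose detection they were picked. In single cells it ran between 1.48 and 17.1 in replicate 1 and between 15.6 and 86.6 in replicate 2. Atf3 was 8.26 and 7.90, against 0.214 and 0.207 in the remaining cells of the cluster and 0.168 and 0.809 in the other NP1 clusters. Unlike in the neuron classes, Atf3 was no higher here in replicate 2. Every cell of the 12 had more Atf3, at 3.62 or above, than either library had over the other NP1 clusters.

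Gap43 was 27.2 and 18.3 in the 12 neurons, against 0.412 and 0.207 in the remaining cells and 0.565 and 0.685 in the other NP1 clusters, and so also above the 12.4 to 14.2 of PEP-A. Sox11 was 5.47 and 9.16, against 0.403 and 0.430 in the other NP1 clusters. Ecel1 was 1.14 and 1.07, Stmn4 3.59 and 3.62, Flrt3 2.39 and 3.71 and Gadd45a 2.71 and 6.21 in the 12, against 0.0019 and 0.00843, 0.0300 and 0.0320, 0.234 and 0.295, and 0.541 and 0.492 in the other NP1 clusters.

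Since the name NP1 is in doubt for these 12, the highest of the 8 neuron classes is given as well. It was NP3 for Atf3, at 1.50 and 4.75, and PEP-C for Stmn4, at 0.740 and 0.802. For Sox11 it was PEP-C by the mean of the libraries, at 0.945 and 0.623. In replicate 2 PEP-C was not the highest for Sox11, since NP1, with the 12 counted in, had 0.844. Klf6 was 0.892 and 2.34 in the 12 neurons, against 0.179 and 0.222 in the other NP1 clusters and 1.31 and 1.46 in PEP-C, and so within reach of a neuron class. Jun was 2.73 and 4.50, against 1.04 and 1.28, and lay within its range over the neuron classes. Fos was low, at 0.136 and 0.728, against 0.498 and 1.75 in the other NP1 clusters. The 12 cells had median depths of 140203.5 and 75772.5 UMIs, against 103737 and 57423 over all neurons.

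**Figure D4:**
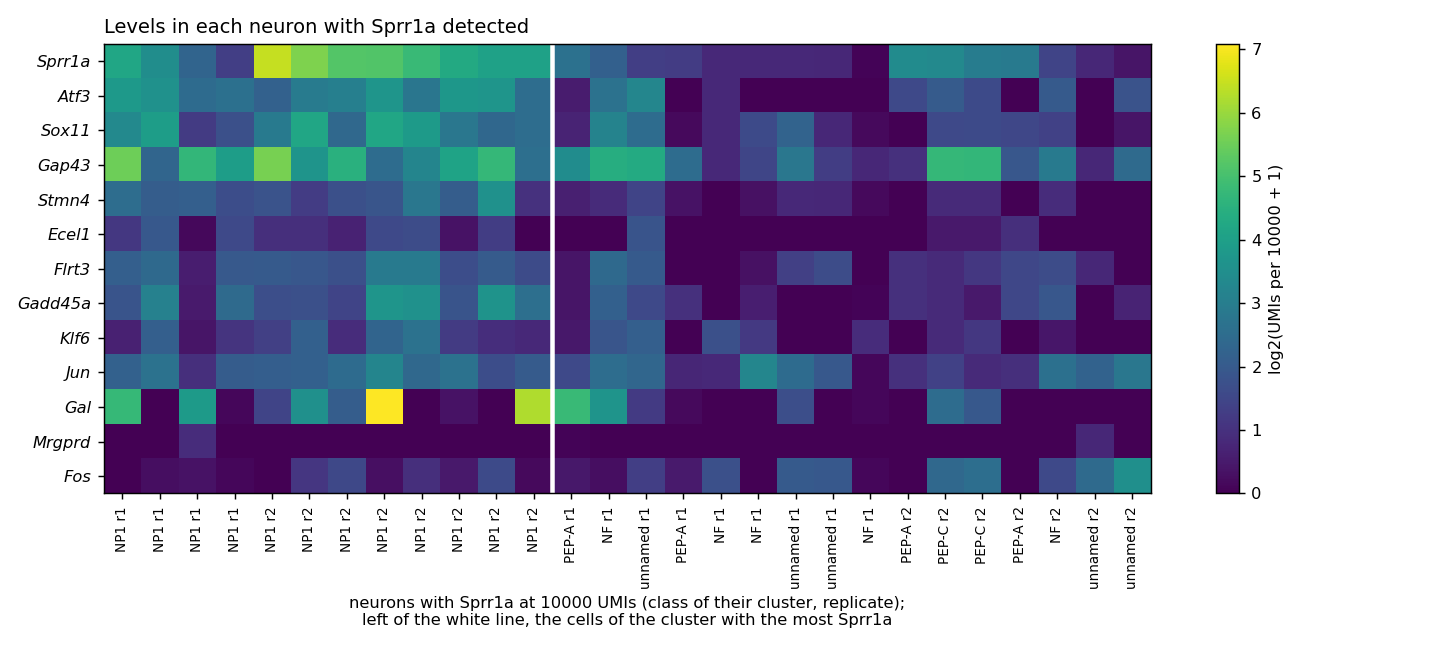
The 28 neurons with Sprr1a as columns and the 10 genes with Gal, Mrgprd and Fos as rows; colour is log2(UMIs per 10000 UMIs + 1) of that cell. The 12 cells of the Sprr1a cluster hold Atf3, Sox11, Gap43, Stmn4, Flrt3 and Gadd45a together, with Mrgprd at or near 0, and the other 16 cells are mixed.

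In every one of the 12 neurons Atf3, Sox11, Gap43 and Gadd45a were detected together, which was so in 4 of 141 and 4 of 151 neurons of the other NP1 clusters after thinning to 10000 UMIs. The other neuron classes were not counted for this, and NP1 is low in some of these genes. Gap43 was detected in 33.8% and 38.9% of all NP1 cells and in 100% of PEP-C cells in both libraries. Atf3 was detected in 15.9% and 44.4% of NP1 and in 48.0% and 81.8% of PEP-C cells. Some further genes of nerve injury, named after their values were seen, were high in the 12 neurons. The neuropeptide Gal was 13.4 and 32.0, against 0.0281 and 0.179 in the other NP1 clusters, and Nts was 5.39 and 12.9, against 0.0238 and 0.0379. The small heat shock protein gene Hspb1 was 21.3 and 51.2, against 1.05 and 1.90, and Csf1, which injured neurons use to call microglia in the spinal cord, was 0.349 and 0.982, against 0.0352 and 0.0211. Against the highest of the neuron classes the gap was smaller: Gal was 3.17 and 6.71 in TRPM8, Nts 6.08 and 9.75 in NP3, above the 12 neurons in replicate 1, Hspb1 13.4 and 19.1 in PEP-A and Csf1 0.147 and 0.186 in PEP-A. Gal was also 10.3 and 1.10 in the other 16 neurons with Sprr1a, in replicate 1 mostly from 1 PEP-A cell. Among the 12 Gal was unequal, at 0 in 3 of them and up to 135 in 1 cell of replicate 2. Other injury peptides and secreted factors did not follow. In the whole cluster Npy, Vip and Reg3b had 0 UMIs in both libraries. Bdnf was 0.948 and 0.946 there, below the 1.13 and 1.63 of the other NP1 clusters.

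Over the whole cluster, relative to the other NP1 clusters, the 9 genes other than Sprr1a, by which the cluster was picked, were at least 2-fold higher in both libraries, where 10.2% of 13644 genes were and 5.34% were at least 2-fold lower. In replicate 1 these sums rest on few cells, since the median over the 16 cells was 0.10 for Atf3, 0.32 for Gap43 and 0 for Stmn4. Also at least 2-fold higher in both libraries were 6 of 14 regeneration transcription factors and 5 of 9 injury peptides and secreted factors. So were 11 of 17 other genes that rise in injured neurons, 5 of 18 growth cone genes and 2 of 14 genes of DLK and JNK signalling. Of 13 Schwann repair genes 1 was higher, and of 17 dissociation and immediate early genes 0. At least 2-fold lower were 1 of the 9 peptides and factors, 1 of the 13 and 1 of the 17. Genes needed 10 UMIs over the cluster and the other NP1 clusters together, so some passed through the cluster. Among them were Fgf3, with 8 and 13 UMIs against 0 and 0, and Arg1, with 5 and 2 against 2 and 1. These counts carry no test. Over the 16 class sums the genes most like Sprr1a were Prkcq at a Pearson r of 0.84, Gm765, Higd1a, Rspo2 and Lpar3, the last an NP1 marker that the 12 neurons hold at 0.136 and 0.

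The other 16 neurons with Sprr1a, 9 and 7 in the libraries, held less of the set. Their Sprr1a was 2.42 and 3.99 UMIs per 10000, their Atf3 1.12 and 2.31, their Gap43 7.04 and 10.5 and their Sox11 1.36 and 1.27. They were of mixed kind, with 32.0 and 42.5 of 8 markers of large myelinated neurons, against 3.37 and 3.30 in the 12, and 2.66 and 68.9 of 5 PEP-C markers, against 13.2 and 1.88. Satellite glia markers came to 6.26 and 11.4, against 3.43 and 4.89 in the 12, and their part in these values was not tested. Atf3 was at 0 in 5 of the 9 and 2 of the 7. These zeros were counted without thinning. The 16 cells were shallower than the 12, at median depths of 46502 and 24716 UMIs against 140203.5 and 75772.5. In replicate 1 most Sprr1a UMIs of the 9 cells came from 1 PEP-A cell of 242023 UMIs, at 5.29 per 10000. Among the 9 were also cells like the 12. An unnamed cell held all 10 genes, with Atf3 at 8.60, Sox11 at 4.73 and Gap43 at 19.1. An NF cell held 8 genes, with Atf3 at 5.35, Sox11 at 8.02 and Gap43 at 20.2. The joint presence of these genes was therefore not confined to the 12.

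A wider rule counted neurons with Atf3 and at least 2 of Sox11, Sprr1a, Ecel1, Flrt3 and Gadd45a after thinning to 10000 UMIs. It held 56 of 619 neurons, or 9.05% (95% Clopper-Pearson interval 6.91 to 11.6), in replicate 1 and 135 of 902, or 15% (12.7 to 17.5), in replicate 2. By class it held 16 of 75 and 27 of 99 PEP-C neurons, 1 of 32 and 8 of 30 NP3 neurons, 11 of 59 and 6 of 39 NF neurons and 0 of 57 and 3 of 136 TH neurons. Unnamed clusters held 7 of 123 and 58 of 341, the most cells of any group in replicate 2. NP1 had 15 of 157 and 25 of 162, of which 5 and 8 lay in the cluster with the most Sprr1a. The rule is a range and not a cell type, since 44 and 110 of these cells lay at exactly 2 others, and Atf3, which the rule uses, was higher in replicate 2.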

How the data were processed

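The 2 libraries of dissociated ganglion cells were made, per the labels, with the 10x Genomics Single Cell 3′ kit after digestion with Liberase and papain. The deposited values are UMI counts, 1 whole number per gene and barcode with no normalization, made by the authors with Cell Ranger 5.0.1 on build mm10 after CASAVA 1.8, per the submitters' processing notes. The deposited barcode and feature files hold names (unit other): cell barcodes, and gene identifiers with symbols. Whether introns or strand entered the counting is not given in the sources used here.

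A barcode was kept when it had 500 genes or more and a mitochondrial share of UMIs below 20%. Scrublet's automatic threshold marked 1 and 0 cells, so the cells with the highest scores were removed at 0.8% per 1000 cells, 555 and 1020. Cells were clustered with scanpy 1.11.5 (Leiden, 2000 variable genes, 30 components, 15 neighbours, resolution 1 and, for neurons, 1.5), leaving out 125 genes of the lists described here. Clusters were named by marker genes, and those that failed the naming conditions stayed unnamed. These conditions were refined, and 1 marker shared with neurons (Gfra3) was dropped, after the data were seen. The 10 genes and all lists were chosen with earlier results of these data known.

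Counts of all cells of a class were added up within each library, for classes with 20 cells or more in both, and tested with edgeR 4.0.16 in R 4.3.3 (TMM factors, its filter on low counts, quasi-likelihood F-test, class and library as terms, Benjamini-Hochberg adjustment over all genes, threshold 0.05). The fit over cell types used 26 sums of 13 classes with 13422 genes (12 residual degrees of freedom), and that over neurons 16 sums of 8 classes with 13291 genes (7). Class sums of 1 library hold different cells but come from that library, so library is the pairing. The SE of a log2 difference is its size over the square root of F. Where a side has several classes, the log2 difference averages their logs and the printed level averages their levels. On simulated data with 2-fold and 4-fold changes the test recovered 96% and 100% of changed genes for neurons minus glia (12 false of 208 calls, 12244 genes) and 99% and 100% for itch minus peptidergic neurons (5 of 204, 12576 genes). The simulation gave all genes an equal spread and no difference between libraries. It changed only genes at 10 CPM or more, all upward. It therefore cannot tell how the test does for sparse genes such as Sprr1a and Ecel1, or where libraries differ.

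Shares of cells were taken after thinning neurons to 10000 UMIs, or all types to 2000, leaving out shallower cells (15.2% and 26.5% of non-myelinating Schwann cells). Of each list and comparison at most 2 genes a direction were to be named, with the largest difference among called genes at 10 CPM or more, alike in sign in both libraries; Gal, Nts, Hspb1, Csf1, Fos, Mrgprd and Tmem45b in single clusters were named after their values were seen. Alternatives were DESeq2 1.42.0, other normalization, filters, doublet handling, depths, resolutions, no library term and each library left out; leaving out or adding single clusters was chosen after seeing the data. Not every gene like Gap43 across the classes is reported here.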

Additional observations from a re-analysis of the deposited data

How the results depend on the processing

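For the 10 genes, 57 results gave 605 tested values under alternatives, of which 556 kept their direction and side of the threshold, 26 lost the call, 2 gained it and 21 changed sign, 3 of them of called results and 18 of results not called on either side. The block by library was part of every test; without it, calls among the 10 genes fell to 2 for non-myelinating minus myelinating Schwann cells, against 5 with it, and to 3 for myelinated minus unmyelinated neurons, against 5 with it. With the Fos-rich cluster left out, 1 gene was called between the Schwann types and Gadd45a reversed to -0.22. With neurons of any depth, 4 genes were called for itch minus peptidergic classes, against 7, and Sprr1a in PEP-C minus NP1 reversed to 3.04 (adjusted p = 0.0676, edgeR). With the Sprr1a cluster left out Sprr1a reversed to 5.08 in that comparison, on 45 UMIs in PEP-C. Without a filter on low counts Sprr1a and Jun passed between Schwann and satellite glia (adjusted p = 0.0434 and 0.0249, edgeR). No count of all called genes moved by more than 1.5 times, and the cause of these changes was not tested. Leaving out a library leaves no residual degrees of freedom, so those 114 values have no test and there is no count of calls; 5 of them changed sign.

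The sign changes of results not called were as follows. For neurons minus glia, Flrt3 went to -0.042 with DESeq2 and Gadd45a to 0.24 without the Fos-rich cluster, and Gadd45a lay between -1.08 and 0.57 with 1 library. For Schwann minus satellite glia, Gadd45a went to -0.60 without the Fos-rich cluster. Gap43 between the Schwann types went to 0.075 without composition factors, 0.053 with doublets kept, 0.0092 with mitochondrial share under 10% and 0.11 without the Fos-rich cluster, and lay between -0.20 and 0.35 with 1 library. For itch minus peptidergic classes, Gadd45a went to 0.011 at any depth and Atf3 lay between -0.29 and 0.38 with 1 library. For myelinated minus unmyelinated classes, Sox11 went to -0.0059 at any depth and -0.29 at the lower resolution, Flrt3 to -0.045 at 20000 UMIs or more and -0.19 at the lower resolution, and Klf6 lay between -0.10 and 0.086 with 1 library. For PEP-C minus NP1, Sox11 went to 0.21 without composition factors, 0.64 at any depth and 0.67 without the Sprr1a cluster, and lay between -0.44 and 0.77 with 1 library, and Flrt3 went to -0.25 with doublets kept, -0.14 at the lower resolution and -0.11 with mitochondrial share under 10%.

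Shares of cells depended on depth by construction. Sprr1a was in 3.88% and 2.77% of neurons without thinning. Atf3 was in 20.0% and 46.3% of neurons at 5000 UMIs and 64.5% and 86.4% without thinning, and in 33.6% and 63.3% of non-myelinating Schwann cells at 1000 UMIs and 72.5% of those of replicate 2 without thinning. Neurons with Atf3 and further injury genes numbered 12 and 25 when 3 others were asked for, 126 and 367 when 1 was, and 344 and 565 without thinning.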
